A study of Mus musculus with 8 samples.

Results

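The enzymes and regulators of cholesterol and fatty acid synthesis were followed in the mouse lung after the left lung had been removed. The set was listed by function, with earlier results of these data known, and holds 28 genes, 19 of the sterol pathway and 9 of the fatty acid pathway. A probe set assigned to 1 gene symbol was found for 27 of them, among 18193 genes on the array. These were 18 sterol and 9 fatty acid genes; Acat2, the thiolase at the head of the sterol pathway, was not analysed here. The 27 genes are covered by 65 probe sets, and each gene was represented by the probe set with its highest mean over the 8 arrays. On the log2 scale these means lay between 6.84 and 13.49, all 27 above the median of 5.92 over all probe sets.

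All mice were female C57BL/6 of 10 to 12 weeks. They were anesthetized with ketamine and xylazine, ventilated, given saline and ampicillin, opened at the left chest and treated with buprenorphine as needed. In the pneumonectomy group (PNY) the left lung was tied off at the hilum and taken out, whereas in the sham group (SHAM) the chest was kept open for 5 minutes and closed with the lung in place. Lungs were perfused and collected at 4 times from surgery on, first at 6 hours and 1 day and then at 3 and 7 days, and equal amounts of tissue from 8 mice were pooled for each of the 8 Affymetrix arrays, 1 per group and time point. Mice without surgery were not analysed here, so a change with time cannot be told apart from a change with recovery, anesthesia or the hour of collection.

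A value is the log2 expression of a probe set, as deposited, and a difference is PNY minus SHAM. Each array gives the mean of a pool, so no value below measures the spread between mice, and the number of arrays limits the precision. The array medians lay between 5.90 and 5.95. The labelled tissue was checked with 9 alveolar type II genes, among them surfactant protein C (Sftpc), whose mean level was 14.68. In whole lung, fewer cells of a type and less RNA per cell cannot be told apart.

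Cholesterol is built from acetyl-CoA through mevalonate, isoprenoid units, squalene and lanosterol, and SREBP2, the product of Srebf2, switches on most of the enzymes when sterol in the endoplasmic reticulum is low. Fatty acid synthesis starts from the same acetyl-CoA and is driven mainly by SREBP1, the product of Srebf1. In the lung, alveolar type II cells use both pathways to make the lipids of surfactant, and dividing cells need them for membranes.

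The study's test was rank products over the 4 time points taken as replicates, where a P-value below 0.001 and a 1.5-fold change were needed. By the probe set with its highest mean, none of the 27 genes passed. The paper's own list from this test holds Cyp51 as 1.5-fold higher in PNY. Here a dimmer Cyp51 probe set passed, as given below. Among all 18193 genes 0.506% were called higher and 0.0605% lower in PNY. Sqle, Cyp51 and Elovl6 had rank product P-values under 0.05, at 0.0314, 0.0366 and 0.0168. The share of all genes under 0.05 in this test was not counted. In limma, 0 of the 27 genes had an adjusted p under 0.05 or an unadjusted p under 0.05. Over all 18193 genes 0% were called and 395 had an unadjusted p under 0.05. With the time point as a block, still 0 were called. There 3 sterol genes (Cyp51, Sqle and Hmgcs1) and 1 fatty acid gene (Elovl6) had an unadjusted p under 0.05, with adjusted values of at least 0.90. The same unadjusted level was met by 1074 of the 18193 genes in that fit. No member had all PNY arrays above all SHAM arrays, as 0.857% of all genes did.

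Sqle encodes squalene epoxidase, which starts the closing of the sterol rings. Its level in PNY was 9.69, 9.55, 9.74 and 9.80 in order of time from 6 hours to 7 days. In SHAM it was 9.55, 8.98, 9.41 and 9.74. PNY was above SHAM at each time, but the groups overlapped, and SHAM at 1 day was the lowest array by far. The mean difference was 0.27 ± 0.23 (SD over 4 time points), with an exact permutation p (two-sided) of 0.114 over the 70 splits of the arrays, for which the smallest possible p is 0.0286. Without the SHAM array of 1 day the mean difference was 0.13. Here and below, leaving out 1 array keeps its same-time partner in, so such a value also carries the change with time.

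Cyp51, the enzyme that removes a methyl group from lanosterol, read 8.19, 8.01, 8.61 and 8.67 in PNY from 6 hours to 7 days. In SHAM it read 8.04, 7.75, 8.27 and 8.47. Both groups were lowest at 1 day and highest at 7 days, and PNY lay above SHAM at every time, by 0.24 ± 0.08. The mean difference was 0.11 without SHAM at 1 day. It was 0.14, 0.16 and 0.36 without the PNY arrays of 7 days, 3 days and 1 day. The partner array stays in for these values, while the same-time differences lay between 0.15 and 0.34. A dimmer probe set of the gene with a mean level of 6.55 was called higher in PNY by rank products, with a mean difference of 0.62, a fold change of 1.54 and a P-value of 0.000361. It read 6.38, 6.85, 7.04 and 7.18 in PNY and 6.07, 5.62, 6.39 and 6.88 in SHAM, so the SHAM array of 1 day was lowest here too. The call was lost when the PNY array of 3 days (mean difference 0.56) or that of 7 days (0.51) was left out. It was also lost without SHAM at 6 hours (0.56) or SHAM at 1 day (0.41), and without both arrays of 1 day (0.42) or of 3 days (P-value 0.00248).

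Among the fatty acid genes the largest mean difference was that of Elovl6, the elongase that extends palmitate, at 0.24 ± 0.21. Its values in PNY were 7.47, 6.30, 7.06 and 6.996 from 6 hours to 7 days, against 7.04, 6.21, 7.03 and 6.59 in SHAM. The groups lay furthest apart at 6 hours, by 0.43, and at 7 days, by 0.40; at 1 day they differed by 0.09 and at 3 days by 0.03. The mean difference was 0.07 without PNY at 6 hours or SHAM at 1 day, and 0.46 without PNY at 1 day. The same-time partner was kept in each case, so these values also carry the change with time, with both groups low at 1 day. Scd2, a stearoyl-CoA desaturase, came next with 0.08 ± 0.18. It read 12.65, 12.33, 12.68 and 12.79 in PNY and 12.56, 12.51, 12.53 and 12.55 in SHAM, the PNY array of 1 day being the lowest of the 8. Without that array the mean difference was 0.17, and without PNY at 7 days it was 0.02, again with the SHAM partner kept.

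At single time points, where each group has 1 array and no test can be made, the sterol and fatty acid genes moved apart most at 1 day. Then 17 of the 18 sterol genes were higher in PNY, with a median difference of 0.27, against 4 of the 9 fatty acid genes with a median of -0.03. Over all genes 53.6% were higher in PNY at 1 day, with a median of 0.02. At 3 days 16 of 18 sterol genes were higher, with a median of 0.15. All 9 fatty acid genes were higher too by the probe set used, but by 0.01 to 0.15, with a median of 0.03. Over their probe sets above the median level 11 of 17 were higher at 3 days. Dimmer probe sets of Scd1 (-0.56) and Scd2 (-0.34) were among those that went the other way. With the mean of each gene's probe sets the fatty acid median at 3 days was -0.03. Over all genes 52.7% were higher at 3 days, with a median of 0.01. At 6 hours the order of the lists was turned. There 12 of 18 sterol genes were higher (median 0.06) and 8 of 9 fatty acid genes (median 0.16). Of all genes above the median level 62.5% were higher in PNY at 6 hours, with a median of 0.05, and the SHAM array of 6 hours held the lowest value of 31.4% of them. At 7 days 8 of 18 sterol genes and 4 of 9 fatty acid genes were higher, with medians of -0.02 and -0.08, against 49.6% of all genes.

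No member reached a fold change of 1.5 either way at any time point, where 1.72%, 2.97%, 1.65% and 3.46% of all genes did so from 6 hours to 7 days. At a fold change of 1.2, a level chosen after the values were seen, 9 of the 18 sterol genes and 0 of the 9 fatty acid genes were higher in PNY at 1 day, compared with 12.4% of all genes.

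**Figure D1:**
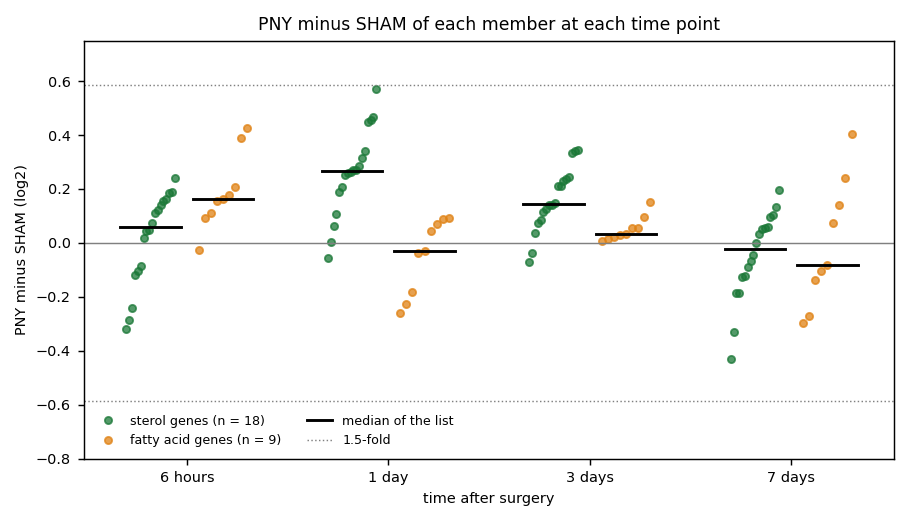
PNY minus SHAM on the log2 scale for each of the 27 genes at each time point, 1 point per gene, sorted within each list; black bars are list medians and dotted lines a fold change of 1.5. At 1 day 17 of 18 sterol genes lie above 0 around a median of 0.27, while the fatty acid genes lie around -0.03, and no gene crosses a dotted line.

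Along the pathway, the 1 day difference was found from the first step to the last, with exceptions in the mevalonate part. Hmgcs1, which makes HMG-CoA, was higher by 0.45, Idi1, the isomerase of the isoprenoid units, by 0.26, Fdps, which joins them to farnesyl diphosphate, by 0.25, and Mvk, mevalonate kinase, by 0.19. Mvd, the decarboxylase that yields the first isoprenoid unit, differed by 0.06, and Pmvk, phosphomevalonate kinase, by -0.05.

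All 9 genes from squalene to cholesterol were higher in PNY at 1 day, by 0.11 to 0.57. After Sqle (0.57, a fold change of 1.48) came Lss, which folds squalene epoxide into lanosterol, with 0.45, and Dhcr7, which carries out the last reduction to cholesterol, with 0.31. Nsdhl and Msmo1, which act in the removal of methyl groups, differed by 0.29 and 0.27, and Fdft1, squalene synthase, by 0.27. Cyp51 differed by 0.26, Hsd17b7, a sterol ketoreductase, by 0.21 and Sc5d, a sterol desaturase, by 0.11. Of all genes 2.05% differed by as much as Sqle in this direction, 4.03% by as much as Lss and 32.2% by as much as Sc5d.

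The 3 sterol genes that are not enzymes differed among themselves. Stard4, a carrier that moves cholesterol between membranes, was higher at 1 day by 0.47, and Insig1, which holds the SREBP precursors in the endoplasmic reticulum, by 0.34. Srebf2 itself differed by 0.00 by the probe set used (mean level 9.53). Its other probe set, with a mean level of 9.41, was 0.22 higher in PNY at 1 day. At 7 days all 3 were lower in PNY, by 0.04 to 0.43, the largest being Insig1 with -0.43.

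Insig1 read 9.38, 9.66, 9.24 and 9.002 in PNY from 6 hours to 7 days and 9.62, 9.32, 9.10 and 9.43 in SHAM. Its highest value was thus on the PNY array of 1 day and its lowest on that of 7 days. The mean difference over time was -0.05 ± 0.35.

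The fatty acid genes went both ways at 1 day. The difference of Fasn, fatty acid synthase, was -0.23, and the desaturases Scd1 (-0.26) and Scd2 (-0.18) lay on the same side. Acaca, the carboxylase of the committed step, and Acly, which cleaves citrate to acetyl-CoA, differed by -0.04 and -0.03. Acss2, which activates acetate, Me1, malic enzyme, Elovl6 and Srebf1 differed by 0.04 to 0.09.

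**Figure D2:**
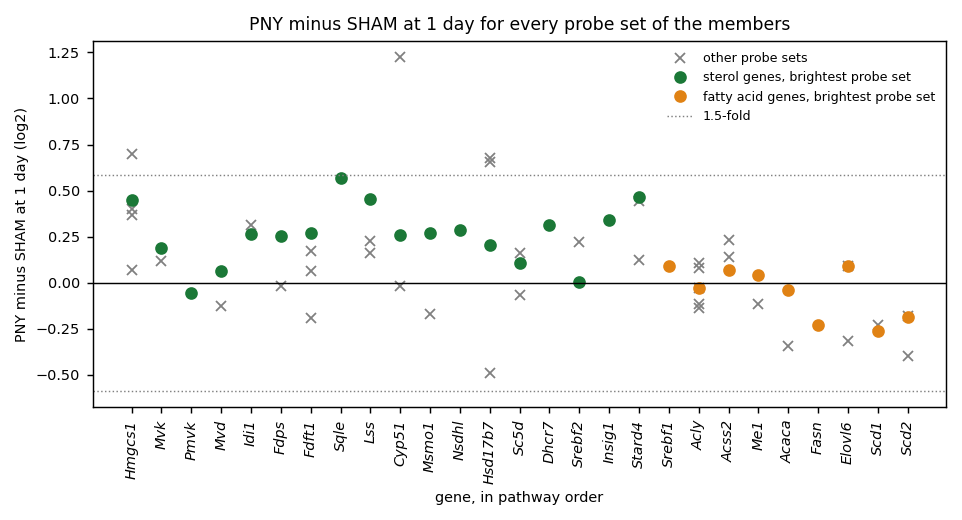
PNY minus SHAM at 1 day on the log2 scale for every probe set of the 27 genes, in pathway order; filled points are the probe set with the highest mean of each gene, crosses its other probe sets and dotted lines a fold change of 1.5. The sterol points run from -0.05 to 0.57 and the fatty acid points from -0.26 to 0.09; the topmost cross, at 1.22, is the dimmer Cyp51 probe set.

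Other probe sets widened the range. At 1 day further probe sets of Hmgcs1 (0.70), Cyp51 (1.22) and Hsd17b7 (0.68 and 0.66) were past a fold change of 1.5, all higher in PNY, and that of Cyp51 was also past it at 3 days (0.65). The fourth probe set of Hsd17b7, below the median level with a mean of 5.02, differed by -0.49 at 1 day, the other way from the 3 others. A dimmer Acaca probe set, with a mean level of 6.10, went 0.77 up at 6 hours and -0.86 down at 3 days, where the brighter one showed 0.02. Over all probe sets above the median level, 31 of 34 of the sterol genes and 6 of 17 of the fatty acid genes were higher in PNY at 1 day. The probe sets used for Hmgcs1, Fdft1 and Hsd17b7 carry the array maker's mark for probes that may match other transcripts (x_at). That of Lss carries a mark for shared probes (s_at), and the next brightest Lss probe set differed by 0.23 at 1 day.

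The sterol difference at 1 day came with low values on the SHAM array rather than high values on the PNY array. Each gene was set against its own mean over the 8 arrays. On the SHAM array of 1 day all 18 sterol genes lay below that mean, with a median deviation of -0.27, and 12 of 18 (66.7%) had their lowest value there. Pmvk (8.80 against a mean of 8.82), Mvd (7.59 against 7.62) and Insig1 (9.32 against 9.35) were only just below their mean on that array. That array held the lowest value of 15.6% of all genes and of 2 of the 9 fatty acid genes. On the PNY array of 1 day the median deviation of the sterol genes was -0.01.

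Set against the other 3 arrays of their own group, sterol genes were lower at 1 day in SHAM in 18 of 18 cases, with a median of -0.30, and in PNY in 13 of 18, with a median of -0.10. The medians over all genes were -0.03 in both groups. In SHAM the deepest was Msmo1 with -0.70, followed by Sqle with -0.59 and Cyp51 with -0.52. Insig1 stood apart in PNY, where it was 0.46 above its other times. In the fatty acid list the order of the groups was turned, with a median of -0.02 in SHAM and -0.20 in PNY. With 1 array of each kind, a property of the SHAM pool or array of 1 day cannot be told apart from the sham surgery at that time.

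**Figure D3:**
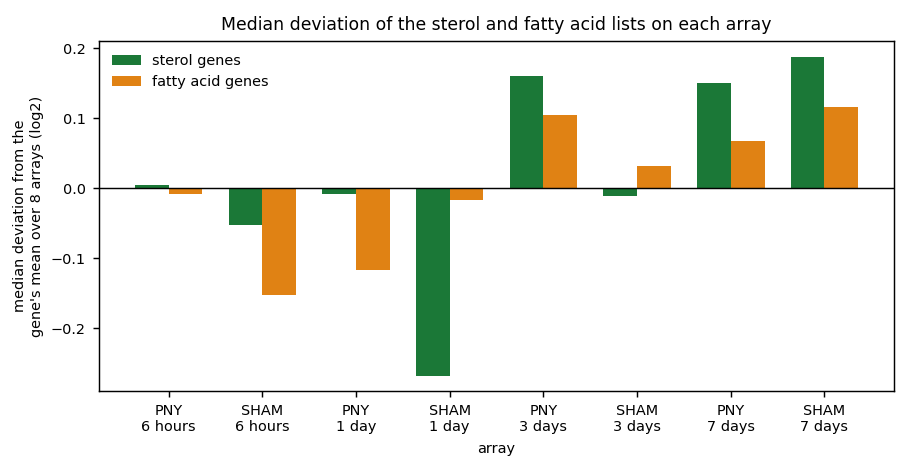
Median deviation of the 18 sterol and 9 fatty acid genes from each gene's mean over the 8 arrays (log2), for each array; bars start at 0 and have no error, since each array is 1 pool. The sterol bar falls to -0.27 on the SHAM array of 1 day, where the fatty acid bar is at -0.02.

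The sterol median minus the fatty acid median on an array measured how far the lists parted. It was -0.25 on the SHAM array of 1 day and 0.11 on the PNY array of 1 day. With the mean of each gene's probe sets the first value was -0.13. On the other arrays it lay between -0.04 and 0.10. Sterol medians were 0.16 and 0.15 on the PNY arrays of 3 and 7 days and 0.19 on the SHAM array of 7 days, where the fatty acid medians were 0.10, 0.07 and 0.12. On the SHAM array of 3 days the sterol median was -0.01 and the fatty acid median 0.03.

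**Figure D4:**
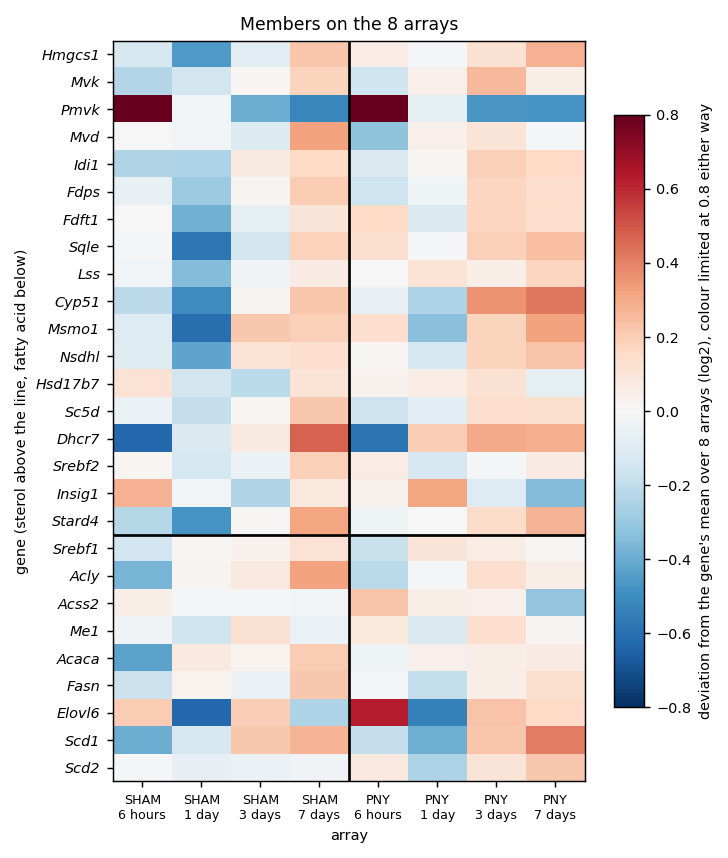
Deviation of each of the 27 genes (rows, in pathway order, sterol genes above the line) from its mean over the 8 arrays, in log2 units, with SHAM arrays to the left and PNY arrays to the right; colours are limited at 0.8 either way. In the column of SHAM at 1 day all 18 sterol genes are below their mean, Pmvk, Mvd and Insig1 only just. Pmvk is high on both arrays of 6 hours.

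Time after surgery was tested over both groups, with 2 arrays per time point. In the limma F test over time 3 of the 18 sterol genes (Pmvk, Dhcr7 and Cyp51) and 1 of the 9 fatty acid genes (Elovl6) had an adjusted p under 0.05, as did 4.04% of all genes. The adjusted p was 0.0065 for Pmvk, 0.0327 for Elovl6, 0.0367 for Dhcr7 and 0.045 for Cyp51. The Cyp51 call did not hold with any one array left out (adjusted p from 0.0963 to 0.164), with a second quantile normalization (0.0579) or without surgery in the model (0.0872). At 6 hours against the later times, Pmvk and Elovl6 were higher, as were 3.5% of all genes, and Dhcr7 was lower, as were 7.72%. The median of 6 hours minus later was -0.05 for the sterol genes and -0.12 for the fatty acid genes, against -0.07 over all genes above the median level.

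Pmvk, which phosphorylates phosphomevalonate, read 9.65 in PNY and 9.94 in SHAM at 6 hours. At the later times it read 8.75, 8.36 and 8.35 in PNY and 8.80, 8.42 and 8.30 in SHAM. Both arrays of 6 hours thus lay well above all others, and the groups ran together. The gene was 1.30 ± 0.10 (SE) higher at 6 hours than later, a fold change of 2.46 (limma, adjusted p = 0.00111), and this call held with each array left out in turn. The call of the F test was lost without either array of 6 hours (limma, adjusted p = 0.0801 without PNY and 0.0922 without SHAM).

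Dhcr7 ran the other way. In PNY it read 6.97, 7.75, 7.86 and 7.84 from 6 hours to 7 days, and in SHAM 6.93, 7.44, 7.63 and 8.03, so both arrays of 6 hours were below all others. It was lower at 6 hours by 0.81 on the log2 scale (-0.81 ± 0.12, SE; limma, adjusted p = 0.00804), a fold change of 1.75. Without the PNY array of 6 hours the adjusted p was 0.103 and without the SHAM array of 6 hours 0.0896. The call of its F test was also lost without PNY at 3 days (0.0865), SHAM at 3 days (0.0873) or SHAM at 7 days (0.0526).

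Elovl6 was 0.56 ± 0.12 (SE) higher at 6 hours than later (limma, adjusted p = 0.0262), but its level was not lowest late. The mean of both groups was 7.26, 6.25, 7.05 and 6.79 in order of time, with both arrays of 1 day below all others. The call was lost without PNY at 6 hours (limma, adjusted p = 0.199) or at 3 days (0.0674), and without SHAM at 6 hours (0.111) or at 7 days (0.0555). That of the F test was lost without any 1 of the arrays of 6 hours, 1 day and 3 days (0.0621 to 0.165). A second probe set, below the median level with a mean of 5.49, was also lower at 1 day (5.30 in PNY and 5.21 in SHAM) than at 6 hours (5.73 and 5.69), but on its PNY array of 7 days it was lower still (5.27).

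**Figure D5:**
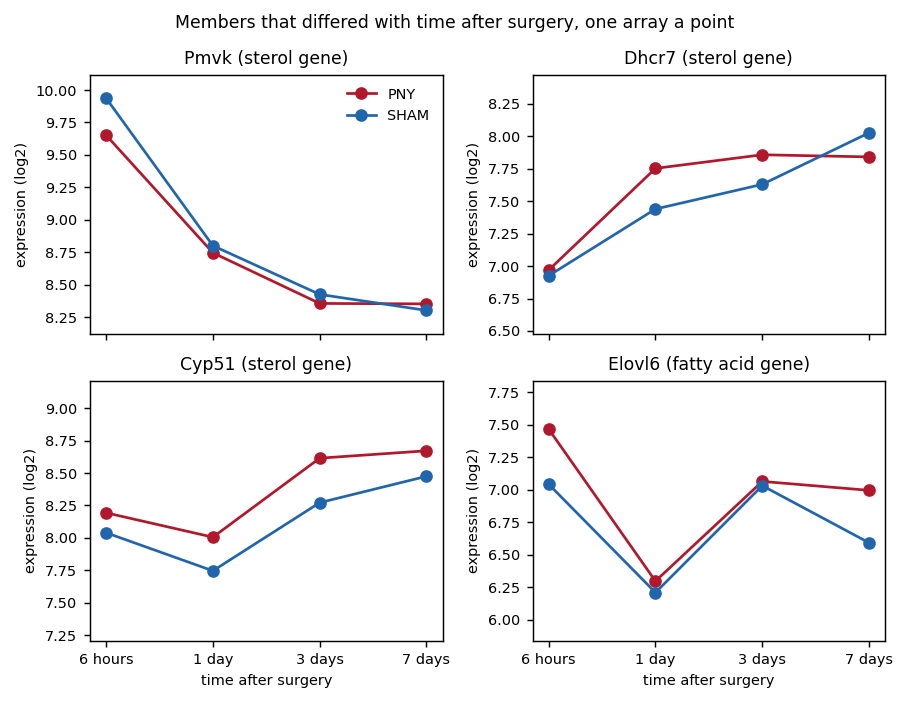
Log2 expression of Pmvk, Dhcr7, Cyp51 and Elovl6 on each array by time after surgery, PNY in red and SHAM in blue, 1 array per point; each vertical axis spans 2 log2 units. Pmvk falls from 9.65 and 9.94 at 6 hours to 8.35 and 8.30 at 7 days, and Dhcr7 rises from 6.97 and 6.93 to 7.84 and 8.03.

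Between 1 day and the mean of 3 and 7 days, 16 of 18 sterol genes and 8 of 9 fatty acid genes were lower at 1 day, with medians of -0.26 and -0.17. Over all genes 62.0% were lower, with a median of -0.05. No member passed after adjustment in limma, as 0.044% of all genes did. An unadjusted p under 0.05 was found for 11 of the 18 sterol and 2 of the 9 fatty acid genes. Among all 18193 genes it was found for 2445. The lowest adjusted p was 0.081, for Msmo1 (-0.70 ± 0.11, SE) and Cyp51 (-0.63 ± 0.10, SE), followed by Elovl6 with 0.11 (-0.67 ± 0.12, SE) and Scd1 and Nsdhl with 0.133. This comparison shares the SHAM array of 1 day with the PNY minus SHAM difference of that day, so neither is a check of the other.

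Msmo1 read 8.72, 8.25, 8.76 and 8.91 in PNY and 8.48, 7.98, 8.80 and 8.77 in SHAM from 6 hours to 7 days. Both arrays of 1 day were below all others. Scd1, the main desaturase of type II cells, read 13.30, 13.10, 13.71 and 13.90 in PNY and 13.09, 13.36, 13.71 and 13.76 in SHAM. It was low at 6 hours and 1 day and high at 3 and 7 days in both groups (F test, limma, adjusted p = 0.0749).

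Between 7 and 3 days none of the 27 genes differed in limma, nor any other gene (0%), and 0 members had an unadjusted p under 0.05. The same held for a change of the PNY minus SHAM difference between the early times (6 hours and 1 day) and the late ones (3 and 7 days), also with 0% of all genes called, 0 members under an unadjusted p of 0.05 and 0 called with the time point as a block. Whether 1 day alone differs from the other times in this respect cannot be tested with 1 array per group.

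Promoter windows of 250 bases before and 50 bases after the start of transcription were taken from RefSeq (build GRCm38.p6). The table held windows for 21 of the 27 genes, 27 windows in all; Fdps, Fdft1, Sqle, Stard4, Scd1 and Scd2 had no match. Shown are windows of the 3 genes with a window and the strongest difference with time, Pmvk, Dhcr7 and Elovl6. The window of Hmgcs1, chosen after the search, is shown too. Of the 21 genes searched, Hmgcs1 alone had a match to the classic sterol regulatory element. All 4 genes lie on the plus strand, and capitals mark matches on either strand to TCACNCCAC (sterol regulatory element), TCACNTGA, CACGTG (E-box) or CCAAT (the NF-Y box, ATTGG on the other strand). The windows are chr13:119690101-119690400 for Hmgcs1, chr3:89454291-89454590 for Pmvk (the first of its 2 windows), chr7:143829964-143830263 for Dhcr7 (the last of its 3 windows) and chr3:129532136-129532435 for Elovl6.
Hmgcs1: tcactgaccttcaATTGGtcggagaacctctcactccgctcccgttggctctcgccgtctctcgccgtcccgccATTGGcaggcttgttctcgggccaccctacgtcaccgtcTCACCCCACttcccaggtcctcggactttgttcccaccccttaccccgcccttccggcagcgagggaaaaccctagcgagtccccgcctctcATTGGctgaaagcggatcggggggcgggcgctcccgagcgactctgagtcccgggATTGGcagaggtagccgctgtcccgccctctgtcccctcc
Pmvk: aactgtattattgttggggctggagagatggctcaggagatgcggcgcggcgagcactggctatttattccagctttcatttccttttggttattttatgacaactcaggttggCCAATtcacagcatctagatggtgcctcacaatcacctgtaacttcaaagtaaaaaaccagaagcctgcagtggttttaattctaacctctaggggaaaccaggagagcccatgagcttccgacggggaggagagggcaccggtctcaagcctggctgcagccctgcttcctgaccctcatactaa
Dhcr7: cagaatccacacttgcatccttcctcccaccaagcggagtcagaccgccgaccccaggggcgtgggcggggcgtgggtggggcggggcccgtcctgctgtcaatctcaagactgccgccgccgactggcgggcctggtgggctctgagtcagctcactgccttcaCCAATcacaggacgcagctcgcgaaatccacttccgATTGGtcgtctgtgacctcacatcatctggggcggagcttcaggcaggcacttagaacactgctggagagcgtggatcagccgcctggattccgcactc
Elovl6: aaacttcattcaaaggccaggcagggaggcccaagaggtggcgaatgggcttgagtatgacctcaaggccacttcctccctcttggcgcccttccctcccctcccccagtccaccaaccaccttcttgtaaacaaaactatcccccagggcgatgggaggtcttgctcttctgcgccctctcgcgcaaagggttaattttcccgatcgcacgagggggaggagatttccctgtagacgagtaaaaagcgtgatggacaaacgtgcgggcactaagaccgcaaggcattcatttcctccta

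The sterol regulatory element of Hmgcs1 spans positions -137 to -129 from the start of transcription, between NF-Y boxes on both sides. That motif was in 1.24% of the 32851 windows in the table, in 1 of the 17 windows of sterol genes and in 0 of the 10 of fatty acid genes. TCACNTGA was in none of the members' windows and in 4.18% of all. The NF-Y box, the site of a factor known to act beside SREBP, was present in at least 1 window of each of the 14 sterol genes and of 5 of the 7 fatty acid genes; by window it was in 14 of 17 (82.4%), 6 of 10 (60.0%) and 37.4% of all. An E-box was found for Dhcr7 (in another of its windows), Hsd17b7, Insig1 and Sc5d, 4 of 17 windows against 7.15% of all. Elovl6 and the second window of Pmvk held none of these motifs. Pmvk and Dhcr7, which ran in opposite directions with time, each had at least 1 NF-Y box in the window shown. The E-box reads the same on both strands, and no match overlapped that of another motif. A match is a description of these letters and was not tested for binding.

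Other genes of the same pathways, from lists that go beyond the members, are given for the same day. Of 9 further sterol synthesis and SREBP genes, 5 were higher in PNY at 1 day, with a median of 0.00 and a range from -0.09 to 0.26. They included Scap, the SREBP escort (0.05), Insig2 (-0.02) and Ebp, a sterol isomerase (0.12). Of 10 genes of sterol efflux and the oxysterol receptor LXR, 2 were higher in PNY at 1 day, with a median of -0.16. Abca1, the cholesterol exporter, differed by -0.29, and Npc1, which releases cholesterol from lysosomes, by -0.32. Of 20 further genes of fatty acid and glycerolipid synthesis, 11 were higher, with a median of 0.01. None of the genes in these lists passed the rank product threshold.

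With time, 3 of the 20 further fatty acid and glycerolipid genes were higher at 6 hours than later and 3 lower (limma, adjusted p under 0.05). Lpin1, a phosphatidate phosphatase, was higher by 1.2 on the log2 scale (adjusted p = 0.000903), and Elovl1, an elongase of very long chains, differed by -0.87 (adjusted p = 0.00357). Of 12 fatty acid oxidation genes 4 were higher at 6 hours and 0 lower. These were Pdk4, which spares glucose (2.80, adjusted p = 0.000596), Angptl4, a lipase inhibitor (1.86, adjusted p = 0.000415), Cpt1a, which admits fatty acids to mitochondria (0.47, adjusted p = 0.0289), and Acadl, an acyl-CoA dehydrogenase (0.46, adjusted p = 0.0274). Of the 9 further sterol genes 0 were called.

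Markers of cell types and responses that can move with lipid genes are given beside these results; their part in them was not tested. At 1 day the 9 alveolar type II genes differed by a median of -0.01 between PNY and SHAM, and at all 4 time points by -0.02 to 0.06. The 10 genes of dividing cells, all called higher in PNY by rank products, differed by medians of 0.18, 0.27, 1.14 and 1.69 from 6 hours to 7 days, so they were furthest apart at 7 days, where the sterol genes differed by -0.02. Of 8 alveolar macrophage genes 2 were higher in PNY at 1 day, with a median of -0.35. Of 11 clock genes 4 were higher in PNY at 1 day, with a median of -0.46, and of 10 glucocorticoid response genes 2, with a median of -0.24.

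The 6 hour arrays differed in other respects too. The median deviation of 8 adipocyte genes was 0.62 on the PNY array and 0.23 on the SHAM array of 6 hours, against -0.26 to -0.02 on the others, and Adipoq, the adipocyte hormone adiponectin, was 1.58 higher in PNY at 6 hours. Of the 8 genes 4 had a mean below the median level, Lep (3.96), Pck1 (4.50), Cidea (5.63) and the brown fat gene Ucp1 (3.62). Of 10 glucocorticoid response genes 9 were higher at 6 hours than later, and of 11 clock genes 6 were higher and 2 lower. The 6 hour values of Pmvk, Dhcr7 and Elovl6 and the PNY minus SHAM difference of the fatty acid genes at 6 hours stand beside these shifts, whose part in them was not tested.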

How the data were processed

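Whole-lung RNA of 8 pools of 8 mice was hybridized to 8 Affymetrix mouse genome arrays, 4 PNY and 4 SHAM. The authors turned the scans into deposited log2 values, 1 per probe set, with RMA in BioConductor (background correction, quantile normalization over the arrays, summarization); the version is not given in the sources used here, and the log base was read from the range of 2.00 to 14.82. Quantile normalization gives all arrays a like distribution, so a shift of most genes at once would not be seen. Of 45101 probe sets 64 controls were left out and 45037 tested. By the array annotation 34945 have 1 gene symbol, 932 several and 9160 none; 34741 of the first were found in RefSeq, which changed no symbol.

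Rank products were coded in Python 3.11.15 (numpy 2.4.6, pandas 2.3.3) over the 16 PNY and SHAM pairs, with 1000 permutations (100 for alternatives). limma 3.58.1 in R 4.3.3 tested PNY against SHAM, time (with surgery as a covariate) and their interaction, with Benjamini-Hochberg adjustment over all 45037 probe sets. Single genes were tested by exact permutation. Figures were drawn with matplotlib 3.10.9. The scripts were tested on simulated data.

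Groups came from the sample labels. In the unblocked limma fit and the exact permutation of PNY against SHAM, p-values measure the spread between pools taken at different times. In the time fit and the blocked fit they measure how PNY minus SHAM varied between times. Rank product P-values come from shuffling the values within each array and measure no spread between pools. Same-time PNY and SHAM arrays deviated together from their group means over all probe sets (r = 0.605, 0.357, 0.303 and 0.295 from 6 hours to 7 days), so the time point pairs the arrays. Pairs across times ranged from -0.508 to 0.340. The main rank product, limma and exact permutation tests of PNY against SHAM, and the main interaction fit, did not use this pairing. The time point was a block only in an alternative fit. The members, lists and motifs were chosen with earlier results of these data known. Every member is named; values on all arrays are given for members past a threshold, for the 2 sterol and 2 fatty acid genes with the largest mean difference, and for Insig1, Msmo1 and Scd1, which were added after their values were seen. Alternatives were array centring, a second quantile normalization, a filter at the median level, the time block, another variance prior, no surgery term, leaving out arrays, other probe sets and other list members.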

Additional observations from a re-analysis of the deposited data

Results flagged for a closer look

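In groups of 4 arrays, an array was singled out where its gap to the nearest of the others exceeded the critical share of the group's range (Dixon's 95% value), which chance does in about 1 of 20 groups. Of 54 groups, 27 genes in PNY and SHAM, 3 were singled out. Fdft1 at 8.49 on the PNY array of 1 day lay below the other PNY arrays, the nearest at 8.75. Dhcr7 at 6.97 on the PNY array of 6 hours lay below the nearest at 7.75. Acss2 at 8.71 on the SHAM array of 6 hours lay above the nearest at 8.64. The arrays of a group are different times after surgery, so a property of 1 array cannot be told apart from its time. In the limma F test over time the adjusted p was 0.0367 for Dhcr7, 0.228 for Fdft1 and 0.486 for Acss2.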

How the results depend on the processing

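The rank product count of 0 members became 1 with any probe set of a gene (Cyp51) and stayed at 0 with arrays centred or quantile normalized again, the filter at the median level, no minimum fold change, limma, same-time pairs only or arrays left out; the replicate block changed no call of a member. The 4 members that differed with time became 9 with a trended and robust variance prior, and 0 to 3 without single arrays. The 3 members at 6 hours against later became 5 with that prior or the filter at the median level, and 1 to 4 without single arrays. At 1 day against 3 and 7 days the 0 became 5 with that prior and 1 with the filter. The lowest exact permutation p gave 0 members under 0.05, and 0 to 3 without single arrays (added after seeing the data), where the smallest possible p is 0.0286. At a fold change of 1.2 instead of 1.5 (also added), the sterol counts of 0 became 2, 9, 3 and 2 from 6 hours to 7 days, and the fatty acid counts 2, 0, 0 and 3, higher or lower. The sterol minus fatty acid median of -0.25 on the SHAM array of 1 day became -0.13 with the mean of each gene's probe sets; the cause was not tested. The other list medians moved by less than their spread over time points or arrays. No call reversed. Without an array a time point has a lone array, assumed to vary like the rest. Limits are the single pool per group and time, and the lack of a test at single time points.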
